A study of Mus musculus with 12 samples.

Results

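The genes described here encode microbe-sensing receptors of B cells and the proteins they depend on: the Toll-like receptors Tlr1, Tlr3, Tlr4, Tlr6, Tlr7 and Tlr9, the receptor Cd180 with its partner Ly86, the chaperone Unc93b1 and the adaptor Myd88. The 10 genes were named as a family, not by their values, and the brightest probe set on average stands for each of them, as for each of the 18194 genes measured. Of the 10, 9 passed a filter on low signal (a log2 value of at least 4 on at least 2 arrays), which 9307 genes passed in all, and Tlr9 did not.

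Splenic follicular (FO) and marginal zone (MZ) B cells were sorted from female C57BL/6 mice at 10 weeks of age and measured on 12 Affymetrix arrays, to follow conditional deletion of Bcl6, a transcriptional repressor, in naive B cells. All mice, controls included, were heterozygous for mb1-cre, which expresses Cre recombinase from a B-lineage gene. Their Bcl6 genotype was Bcl6(+/+), called wild-type here, Bcl6(+/flox), called heterozygous, or Bcl6(flox/flox), called homozygous. Each of the 6 groups of cell type and genotype held 2 arrays. FO cells were sorted as B220+AA4.1-CD21intCD23+ and MZ cells by high CD21 and low CD23, after magnetic depletion that included CD11b, Gr-1 and CD3. Nothing in the labels states that replicate arrays stem from different animals, or whether FO and MZ cells share donors. P-values therefore set differences between group means only against the scatter of these samples within the 6 groups, and that scatter may be technical.

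Toll-like receptors recognise conserved microbial molecules. TLR1 and TLR6 pair with TLR2 to bind bacterial lipopeptides and TLR4 with MD-2 binds lipopolysaccharide at the cell surface, whereas TLR3, TLR7 and TLR9 sense nucleic acids in endosomes, where UNC93B1 delivers them. All of these except TLR3 signal through MyD88, and TLR3 uses TRIF, the product of Ticam1. CD180 resembles TLR4 outside the cell but lacks its signalling domain, and it reaches the B cell surface with MD-1, the product of Ly86. MZ B cells are known for rapid responses to blood-borne microbes and FO B cells for T cell-dependent responses.

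Promoter windows from RefSeq (mouse assembly GRCm38.p6, 250 bases before to 50 after a start site) were matched for 7 of the 10 genes, in 10 windows. The 2 windows shown belong to Tlr3, the gene with the largest difference between the cell types, and to Myd88, the gene whose window held the core motif of BCL6 and STAT factors. In the Tlr3 window (chr8:45410331-45410630, minus strand) the capitals mark a match to the kB motif (GGG and TTTCC with any 2 bases between). In the Myd88 window (chr9:119339969-119340268, minus strand) they mark a match to TTCCNNGAA on the opposite strand, overlapped by a match to the interferon-response core (GAAA and GAAA with any 2 bases between).
Tlr3: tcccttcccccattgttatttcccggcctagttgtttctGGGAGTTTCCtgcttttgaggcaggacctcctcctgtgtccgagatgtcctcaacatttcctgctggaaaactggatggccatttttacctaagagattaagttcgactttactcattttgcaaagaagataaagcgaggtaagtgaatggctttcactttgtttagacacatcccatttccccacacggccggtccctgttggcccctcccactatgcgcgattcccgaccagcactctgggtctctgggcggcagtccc
Myd88: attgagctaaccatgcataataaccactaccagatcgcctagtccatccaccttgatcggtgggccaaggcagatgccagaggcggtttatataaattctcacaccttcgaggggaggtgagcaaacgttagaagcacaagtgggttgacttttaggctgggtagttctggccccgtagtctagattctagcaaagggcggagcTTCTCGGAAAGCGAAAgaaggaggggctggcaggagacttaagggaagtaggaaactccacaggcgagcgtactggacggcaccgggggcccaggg
Searched on both strands, TTCCNNGAA was present in 4.81% of 32851 mouse promoter windows of the same length and in 1 of the 10 windows of these genes. The kB motif was present in 1.63% of all windows, and among these genes in that of Tlr3. The interferon-response core was present in 3.44% of all windows and, among these genes, in those of Myd88 and Tlr6. The RBPJ motif GTGGGAA, held by 6.38% of all windows, was found for Tlr9 and in both overlapping windows of Cd180, and the PU.1 motif GAGGAAGT, held by 3.2%, was found for Tlr1 and Tlr9. A match describes letters in a window and is not a binding site.

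Bcl6 was measured by 2 probe sets that moved apart. The dimmer set read 4.94 and 5.61 on FO wild-type arrays against 2.36 and 2.48 on FO homozygous arrays, and lay at the minimum on all MZ arrays. The brighter set read 11.95 and 11.65 in FO wild-type against 12.70 and 12.88 in FO homozygous cells, and 8.29 and 8.81 against 9.95 and 10.37 in MZ cells. Which set lies in the deleted part is not given in the labels, so neither checks the genotype of the MZ arrays. Values are log2 expression, and the lowest value of an array was 2.21 in FO and 2.22 in MZ cells, a difference that may come from separate normalization and cannot be told apart from cell type. The mean of 6 MZ markers ran from 13.1 to 13.7 on MZ arrays and from 10.1 to 10.6 on FO arrays, and that of 2 FO markers from 8.29 to 9.10 and from 11.3 to 12.3, so the sorts carried their labelled markers. The neutrophil genes S100a8 and S100a9 read between 7.04 and 9.81 on 4 arrays (FO heterozygous 1, FO homozygous 1, MZ wild-type 1 and MZ homozygous 1), and S100a8 was at or below 2.66 on the other 8. MZ wild-type 1 also had a Gapdh 3' minus 5' difference of 6.90, against at most 0.63 elsewhere. Many results in which these arrays moved a call, a direction or a value by over 1.5 times are given with and without them. For groups of genes they are given as counts or ranges. Other results are given with all arrays only, so a single value does not show that these arrays left it unchanged. Without the 4 arrays with S100a8 signal, replicate 2 stood alone in FO heterozygous, FO homozygous, MZ wild-type and MZ homozygous cells.

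**Figure D1:**
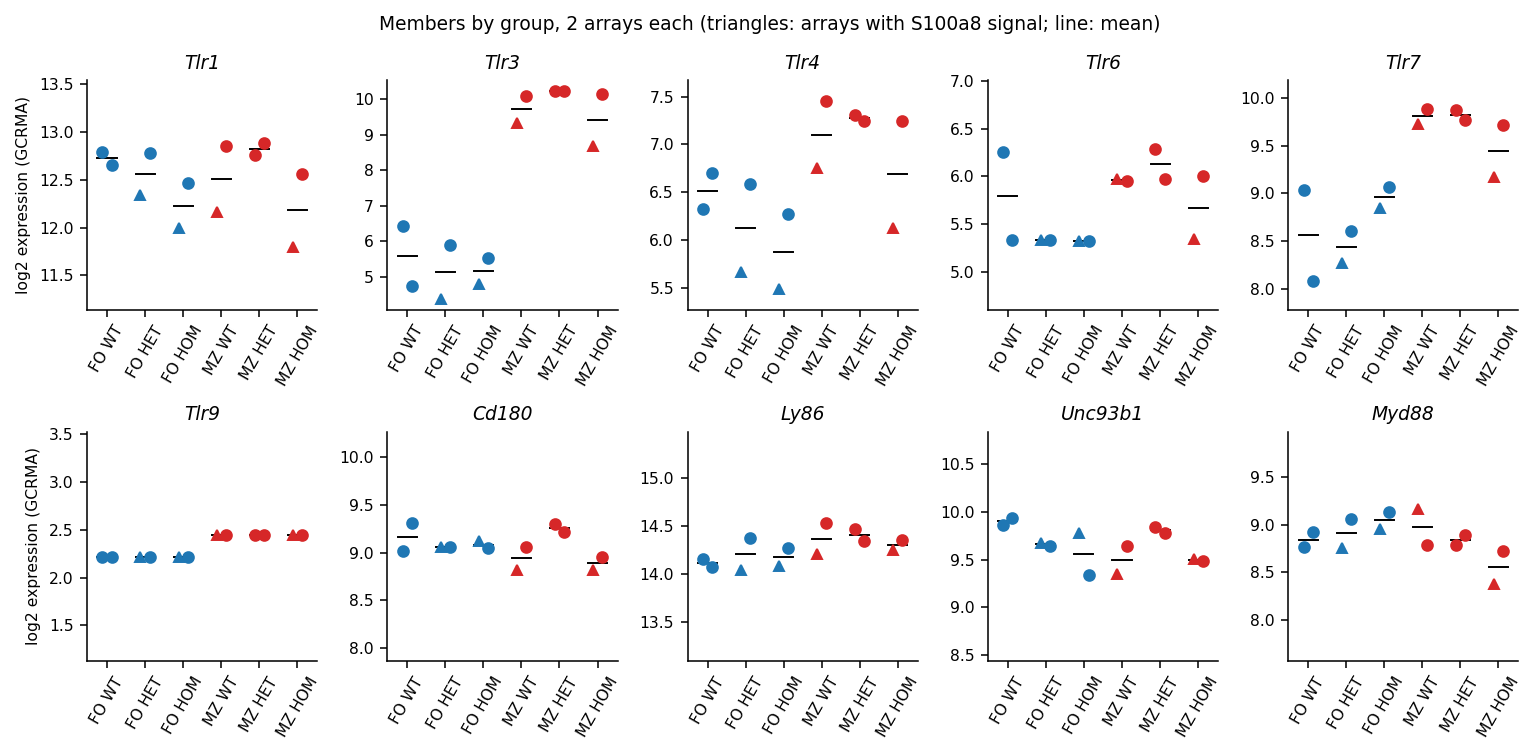
Log2 signal of the 10 genes on each of the 12 arrays, by cell type and Bcl6 genotype, with a line at each group mean (n = 2) and triangles for the 4 arrays with S100a8 signal. Tlr3 and Tlr7 separate the cell types on every array, and Tlr9 lies near the minimum throughout.

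Tlr3, the sensor of long RNA duplexes, was the member that differed most between the cell types. Its FO values were 6.42 and 4.75 in wild-type, 4.37 and 5.88 in heterozygous, and 4.81 and 5.52 in homozygous cells. Its MZ values were 9.33 and 10.11 in wild-type, 10.24 and 10.24 in heterozygous, and 8.69 and 10.16 in homozygous cells. Every MZ array lay above every FO array. The mean was 9.79 ± 0.64 (SD, n = 6) in MZ against 5.29 ± 0.78 in FO cells, a difference of 4.50 ± 0.41 (SE) or 22.7-fold, averaged over genotypes (95% interval 3.56 to 5.45, limma adjusted p = 4.31e-05). The comparisons of cell type pool sorted cells, so fewer cells expressing a gene and less RNA per cell cannot be told apart. A separate probe set for Tlr3 gave 4.86 (limma adjusted p = 2.69e-05).

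The Tlr3 difference was present in each genotype. It was 4.14 ± 0.71 in wild-type (limma adjusted p = 0.00389), 5.12 ± 0.71 in heterozygous (0.00131) and 4.26 ± 0.71 in homozygous cells (0.00376). Leaving out any 1 array kept all of these calls, with adjusted p-values up to 0.0334. Without the 4 arrays with S100a8 signal the average was 4.51 (adjusted p = 0.00842), and the homozygous difference, at 4.64, no longer passed (adjusted p = 0.0764). Within MZ cells, both arrays with S100a8 signal, at 8.69 and 9.33, lay below the other 4, at 10.1 to 10.2.

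Tlr7, an endosomal sensor of uridine-rich RNA, was also higher in MZ cells. FO values were 9.04 and 8.09 in wild-type, 8.27 and 8.60 in heterozygous, and 8.85 and 9.07 in homozygous cells. MZ values were 9.73 and 9.88, 9.87 and 9.76, and 9.18 and 9.71 in the same order. The lowest MZ array, homozygous 1, lay just above the highest FO array, homozygous 2. On 2 further probe sets the cell types overlapped, and the differences averaged over genotypes were 1.19 (limma adjusted p = 0.0152) and 1.19 (0.0116). On the brightest probe set the difference averaged over genotypes was 1.04 ± 0.18, or 2.05-fold (95% interval 0.63 to 1.45, limma adjusted p = 0.00182). Without the S100a8 arrays it was 1.06 and missed the threshold (adjusted p = 0.0617).

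By genotype, the Tlr7 difference was 1.24 ± 0.31 in wild-type (limma adjusted p = 0.0224), 1.38 ± 0.31 in heterozygous (0.0144) and 0.49 ± 0.31 in homozygous cells (0.338, 95% interval -0.23 to 1.20). The further probe sets passed in wild-type cells, at 1.95 (limma adjusted p = 0.0368) and 1.92 (0.0309). They missed the threshold in heterozygous cells, at 1.15 (0.167) and 1.18 (0.138), and in homozygous cells. MZ wild-type 1 read 9.43 and 9.69 on them, against at most 8.17 and 8.42 on the other MZ arrays. On the brightest probe set the homozygous and wild-type differences were not shown to differ: their contrast was -0.76 ± 0.44 (limma adjusted p = 0.975). The wild-type call was lost without FO wild-type 2 (0.77, adjusted p = 0.109), MZ wild-type 1 (1.32, 0.063) or MZ wild-type 2 (1.17, 0.0666). The heterozygous call was lost without FO heterozygous 1 (0.0878), MZ heterozygous 1 (0.0846) or MZ heterozygous 2 (0.0544).

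Tlr9, which senses CpG-rich DNA, gave no usable level. Its single probe set read 2.21 to 2.22 on the FO arrays and 2.44 on each MZ array, all within 0.5 of the minimum, so it was not tested with the other genes. Fitted without the filter, its offset of 0.23 between cell types would pass (limma adjusted p = 2.08e-11), since replicates at the minimum have almost no spread. A probe set near the minimum does not show that the transcript was absent.

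Unc93b1, the chaperone of the endosomal receptors, lay between 9.34 and 9.94 in FO and between 9.35 and 9.84 in MZ cells, and these ranges overlapped. Its difference was -0.10 ± 0.10 (95% interval -0.34 to 0.13, limma adjusted p = 0.441), and 0.11 with all arrays quantile-normalized or 0.05 at equal array medians. It was 0.02 without the S100a8 arrays.

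Among the surface receptors, Tlr4 was the one whose level passed the test between cell types. FO values were 6.33 and 6.71 in wild-type, 5.66 and 6.58 in heterozygous, and 5.48 and 6.27 in homozygous cells. MZ values were 6.75 and 7.46, 7.30 and 7.25, and 6.12 and 7.25 in the same order. The cell types overlapped through MZ homozygous 1, which lay below 4 of the 6 FO arrays. The difference was 0.85 ± 0.27, or 1.80-fold (95% interval 0.24 to 1.46, limma adjusted p = 0.0314).

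This Tlr4 call was lost on leaving out any 1 of 7 arrays: FO wild-type 1, FO heterozygous 1, FO homozygous 1, MZ wild-type 2, MZ heterozygous 1, MZ heterozygous 2 or MZ homozygous 2, with values of 0.66 to 0.86 and adjusted p-values up to 0.0817. It was kept at 0.87 without the S100a8 arrays (adjusted p = 0.0218). A probe set of Tlr4 with wider spread fell as low as 3.12 in FO and 4.53 in MZ cells, with a difference of 1.01 ± 0.62 (limma adjusted p = 0.229). The remaining probe sets of Tlr4 did not pass the filter.

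Tlr6 read 6.26 on FO wild-type 1 and 5.33 to 5.34 on the other 5 FO arrays, a shared lowest level of this probe set. On MZ arrays it read 5.97 and 5.96 in wild-type, 6.29 and 5.97 in heterozygous, and 5.35 and 6.00 in homozygous cells. The difference of 0.44 ± 0.18 missed the threshold (limma adjusted p = 0.0804). Quantile normalization (0.54, adjusted p = 0.0414) and equal array medians (0.59, 0.0366) moved it past.

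Tlr1 did not separate the cell types. FO values were 12.79 and 12.65 in wild-type, 12.35 and 12.78 in heterozygous, and 11.99 and 12.47 in homozygous cells. MZ values were 12.17 and 12.86, 12.76 and 12.88, and 11.80 and 12.56 in the same order. Its 4 lowest values were those of the 4 arrays with S100a8 signal, at 11.80 to 12.35 against 12.47 to 12.88 on the other 8. The difference between cell types was -0.0024 ± 0.19 (95% interval -0.43 to 0.42, limma adjusted p = 0.993), and 0.22 after quantile normalization or 0.16 at equal array medians. It was 0.09 without the S100a8 arrays.

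The same 4 arrays had the 4 lowest values of Pax5, the B-lineage transcription factor, at 6.14 to 6.60 against 7.31 to 8.38, and of Cd79b, a chain of the B cell receptor. The B cell markers Ms4a1 and Cd79a did not follow this pattern. Ms4a1 was lower on these arrays in MZ cells, but FO heterozygous 1 had its highest FO value, at 15.29. Cd79a read 10.99 and 11.09 on them against 10.58 to 11.78 on the other FO arrays. In MZ cells it read 10.70 and 10.12 against 10.03 to 10.62. For Tlr4 the arrays with S100a8 signal lay below the other arrays within each cell type, at 5.48 and 5.66 against 6.27 to 6.71 in FO and at 6.12 and 6.75 against 7.25 to 7.46 in MZ cells. Cd180 and Ly86 were lowest on them in MZ cells but not in FO cells. The mean of 8 myeloid markers lay between 3.01 and 5.51 in FO and between 3.36 and 5.54 in MZ cells. Cd14 and Itgam were near the minimum on every array. Of the 6 tested markers, 2 were called higher in MZ cells and 1 lower. Cd68 read 4.19 to 6.13 in FO and 6.80 to 7.85 in MZ cells, and Csf1r 2.24 to 3.45 and 4.30 to 5.69. Adgre1 went the other way, at 4.64 to 6.41 in FO cells and lower on every MZ array. The mean of 7 dendritic cell markers stayed between 2.87 and 3.28, with Siglech and Xcr1 near the minimum. Flt3 read 4.93 to 7.15 in FO and 4.41 to 6.50 in MZ cells. Klk1 read 2.81 to 3.56 in FO and 4.55 to 4.80 in MZ cells, whereas Ccr9 was lower on every MZ array. Of 4 T cell markers, 3 were near the minimum. The part of other cells in these levels was not tested.

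**Figure D2:**
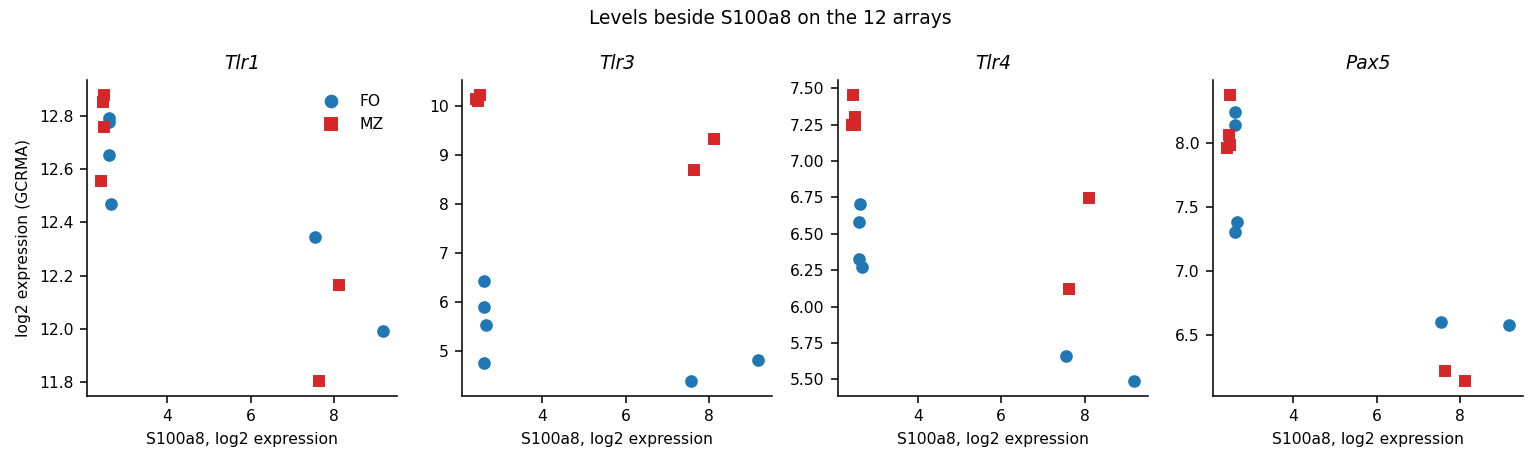
Log2 signal of Tlr1, Tlr3, Tlr4 and the B-lineage factor Pax5 against that of the neutrophil gene S100a8, with 1 point per array. The 4 arrays with S100a8 signal hold the lowest Tlr1 and Pax5 values, whereas Tlr3 separates by cell type.

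Cd180 did not pass the test between cell types. FO values were 9.02 and 9.31 in wild-type, 9.05 and 9.06 in heterozygous, and 9.12 and 9.04 in homozygous cells. MZ values were 8.82 and 9.06, 9.30 and 9.21, and 8.82 and 8.96 in the same order. Group means lay within 0.37 of each other, from 8.89 (SD 0.10) in MZ homozygous to 9.26 (SD 0.06) in MZ heterozygous cells. The arrays of those groups did not overlap, and the difference between them was not tested. The MZ minus FO difference was -0.073 ± 0.09 (95% interval -0.28 to 0.14, limma adjusted p = 0.546), and 0.13 after quantile normalization or 0.09 at equal array medians. It was 0.002 without the S100a8 arrays. Over the 12 arrays the genes with the most similar pattern were Arhgap9 (Pearson r = 0.856), Sptlc1 (0.809) and Coq8a (0.781), as a description of arrays that share cell type and RNA source. For Tlr3 they were Naip2 (0.988), Pdcd2l (0.988) and S1pr3 (0.986), which share its step between cell types.

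Ly86 lay between 14.05 and 14.38 in FO and between 14.21 and 14.53 in MZ cells, with overlapping ranges. Its difference was 0.19 ± 0.10 (limma adjusted p = 0.165) and passed at equal array medians, at 0.35 (adjusted p = 0.0307). Myd88 read 8.76 to 9.13 in FO and 8.38 to 9.17 in MZ cells, with a difference of -0.14 ± 0.12 (95% interval -0.41 to 0.12, limma adjusted p = 0.348), and 0.06 after quantile normalization or 0.02 at equal array medians. The Myd88 difference was -0.23 without the S100a8 arrays.

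**Figure D3:**
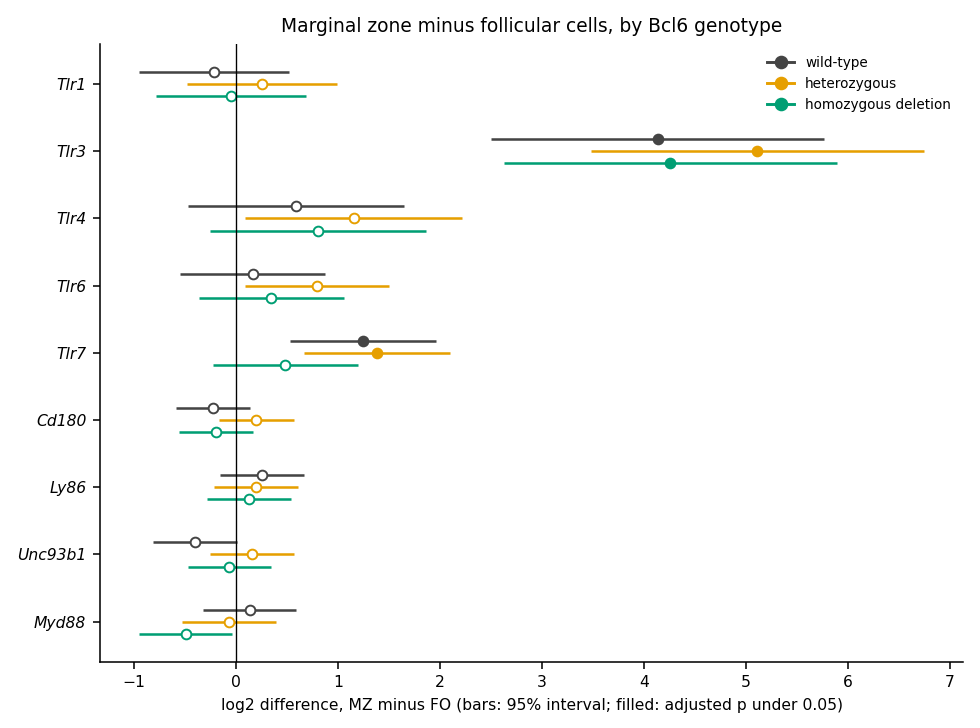
MZ minus FO log2 difference of the 9 tested genes in each genotype, with 95% intervals from limma. Tlr3 lies between 4.14 and 5.12 in every genotype, Tlr7 between 0.49 and 1.38, and the intervals of Tlr1 span 0.

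In all, 3 of the 9 genes were higher in MZ cells and none lower in the average over genotypes (adjusted p under 0.05), against 44.5% of all tested genes called in either direction, 16.2% higher and 28.2% lower. Arrays did not overlap for 2 of the 9, both higher in MZ cells, against 28.4% of all genes in either direction and 11.4% higher. In wild-type cells 2 of 9 were called (22.2% of all genes), in heterozygous cells 2 of 9 (23.2%) and in homozygous cells 1 of 9 (19.1%). Counted in either direction, these shares were not above those of all genes. The genes called were all higher in MZ cells, but with 9 genes the counts give no result about the family as a whole. The median of the 9 was 0.19 against -0.17 for all genes. All-gene calls leaned lower in MZ cells, at 1508 higher and 2629 lower, and turned to 2132 higher and 1560 lower after quantile normalization.

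None of the 9 genes passed the threshold in the comparison of homozygous with wild-type cells. In FO cells 0 of 9 were called against 0.43% of all genes, and in MZ cells 0 of 9 against 0.0645%. In heterozygous cells 0 of 9 were called in FO (0% of all genes) and in MZ (0.0107%). Averaged over cell types the homozygous comparison called 0 of 9 (0.462%). None had an unadjusted limma p under 0.05 in any of these comparisons, where 6.97% of all genes did in FO and 6.08% in MZ homozygous cells, 1.98% in FO and 3.08% in MZ heterozygous cells, and 9.07% in the homozygous average. A p that misses the threshold does not show that levels were alike, so intervals are given.

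In FO cells the changes from wild-type to homozygous ran from -0.64 ± 0.46 for Tlr4 (95% interval -1.70 to 0.42) to 0.40 ± 0.31 for Tlr7 (-0.32 to 1.11). Unc93b1 had the smallest p, with 9.86 and 9.94 in wild-type against 9.78 and 9.34 in homozygous cells, a change of -0.34 ± 0.18 (limma adjusted p = 0.846). The arrays of 5 of 9 genes did not overlap (33.9% of all genes), with Tlr1, Tlr4, Tlr6 and Unc93b1 lower (15.9% of all genes) and Myd88 higher (18%) in homozygous cells. Of these, Tlr1 at -0.49 and Tlr4 at -0.64 stood at -0.25 and -0.24 without the S100a8 arrays, whereas Unc93b1 moved to -0.56. FO homozygous 1 is among those arrays, so FO homozygous 2 stood alone there. Tlr6 stayed at -0.47, a change that rested on FO wild-type 1 at 6.26. FO wild-type 2 read 5.34, just above both homozygous arrays at 5.33. Without the S100a8 arrays Myd88 moved from 0.20 to 0.29, and Tlr3, at -0.42 with all arrays, moved to -0.06.

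In MZ cells all 9 changes were negative, from -0.43 for Myd88 to -0.0028 for Unc93b1, with a median of -0.30 against -0.08 for all genes. Myd88 read 9.17 and 8.79 in wild-type against 8.38 and 8.72 in homozygous cells, a change of -0.43 ± 0.20 (limma adjusted p = 0.801). MZ wild-type 1 and MZ homozygous 1, the arrays at either end of that range, both carried S100a8 signal, and without the S100a8 arrays the change was -0.06. That setting compares MZ homozygous 2 alone with MZ wild-type 2 alone. There the one-sided direction was also lost, with Tlr6 at 0.05 and Tlr3 at 0.05 and the other 7 between -0.30 and -0.06. Arrays did not overlap for 2 of 9, Tlr7 and Myd88, both lower (31.2% of all genes in either direction, 21.3% lower). Tlr3 changed by -0.30 ± 0.71 (95% interval -1.93 to 1.34), an interval that holds changes of more than 2-fold in either direction.

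Heterozygous cells gave similarly small differences. In FO cells they ran from -0.47 for Tlr6 to 0.10 for Ly86, and 2 of 9 did not overlap, Tlr6 and Unc93b1, both lower (22.8% of all genes in either direction, 10% lower). For Tlr6 this rested on FO wild-type 1 at 6.26, since FO wild-type 2, at 5.34, lay just above both heterozygous arrays, at 5.33. In MZ cells the differences ran from -0.14 for Myd88 to 0.52 for Tlr3, and 3 of 9 did not overlap, Tlr3, Cd180 and Unc93b1, all higher (28.2% in either direction, 10.4% higher). The smallest p there was that of Cd180, whose values of 9.30 and 9.21 stood against 8.82 and 9.06 in wild-type (0.32 ± 0.16, limma adjusted p = 0.792). These differences also moved without the S100a8 arrays, a setting that left MZ wild-type 2 and FO heterozygous 2 alone in their groups. In MZ cells Tlr3 went to 0.13, Cd180 to 0.20, Unc93b1 from 0.32 to 0.17 and Myd88 to 0.05, and Tlr1, Tlr4, Tlr7 and Ly86 turned from positive to negative. In FO cells Tlr3 turned from -0.46 to 0.30, and Tlr1, Tlr4 and Tlr7 turned from negative to values of 0.04 to 0.07. Ly86 moved from 0.10 to 0.26 in FO cells.

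**Figure D4:**
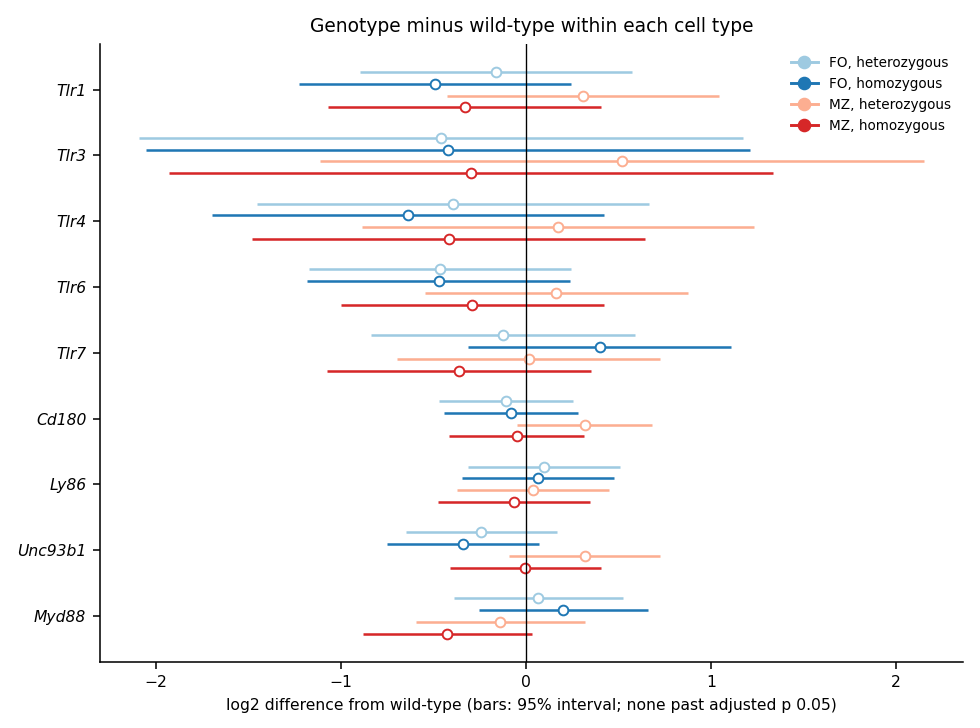
Log2 change of the 9 tested genes from wild-type to homozygous and heterozygous Bcl6 genotype in FO and in MZ cells, with 95% intervals from limma. Every interval includes 0, and the widest are those of Tlr3.

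The homozygous effect in MZ minus that in FO cells was called for 0 of 9 genes (0.0107% of all genes), and 0 had an unadjusted p under 0.05 (3.74%). Myd88 came closest, at -0.63 ± 0.28 (limma adjusted p = 0.975), followed by Tlr7 at -0.76 ± 0.44. Without the S100a8 arrays Myd88 stood at -0.36 and Tlr7 at -0.68.

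The wider pathway was read from a list of 56 further genes, of which 49 were measured and 41 tested. Between MZ and FO cells 5 were higher and 15 lower, where 44.5% of all tested genes were called, 16.2% higher and 28.2% lower, so the count is near that background. The median was -0.37 against -0.17 for all genes. The split was 9 higher and 11 lower after quantile normalization, 8 higher and 13 lower at equal array medians, and 5 higher and 10 lower without the S100a8 arrays. Roles are described with the same shares of 16.2% higher and 28.2% lower as background. Among other receptors and co-receptors, 1 of 2 tested genes rose: Ly96, which encodes MD-2, the partner with which TLR4 binds lipopolysaccharide. Ly96 read 6.28 to 7.01 in FO and 8.88 to 9.49 in MZ cells, with no overlap, and rose by 2.50 ± 0.15 (limma adjusted p = 2.69e-06). The other was Tlr2, partner of TLR1 and TLR6, at 0.93 ± 0.33 (limma adjusted p = 0.0504), just short of the threshold. Both were called with quantile normalization, equal array medians, a robust mean-variance trend, the replicate block or without the S100a8 arrays.

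Among 9 genes of receptor chaperoning and trafficking, 2 were higher (16.2% of all genes) and 1 lower (28.2%). The lower gene was Slc15a4, a transporter of the endolysosome, at -0.37, and its call was kept on leaving out just 2 of the 12 arrays in turn and was lost without the S100a8 arrays (limma adjusted p = 0.237), after quantile normalization (-0.13, 0.486) and at equal array medians (-0.21, 0.22). Ctsb, an endolysosomal protease of the cathepsin family, read 9.04 to 9.39 in FO and 10.50 to 11.57 in MZ cells and rose by 1.59 ± 0.17 (limma adjusted p = 1.26e-04). Lgmn, the asparagine endopeptidase, was higher in MZ cells by 0.90 averaged over genotypes, and by 0.94 ± 0.21 among wild-type cells (limma adjusted p = 0.0141). Among 13 proximal adaptors and kinases 1 was higher (16.2% of all genes) and 7 lower (28.2%). Peli1, a ubiquitin ligase acting on IRAK complexes, read 11.21 to 11.70 in FO and 10.37 to 10.87 in MZ cells and fell by 0.83 ± 0.10 (adjusted p = 2.59e-04). Tab2, which links TRAF6 to the kinase TAK1, fell by 0.61 ± 0.08 (adjusted p = 3.59e-04).

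The adaptor that rose was Ticam1, named after its values were seen because it serves TLR3. It read 6.40 to 7.28 in FO and 7.03 to 7.45 in MZ cells, with overlap, and differed by 0.47. Its call was lost without FO homozygous 2 (limma adjusted p = 0.0509), MZ homozygous 2 (0.0516) or the S100a8 arrays (0.0744).

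Among 11 genes of NF-kB and IRF output, 1 was higher (16.2% of all genes) and 4 lower (28.2%), and without the S100a8 arrays 1 was higher and 1 lower. Ikbke, a kinase that activates IRF3 and IRF7, read 6.67 to 7.50 in FO and 8.25 to 8.94 in MZ cells and rose by 1.55 ± 0.19 (limma adjusted p = 2.53e-04). Ikbkb, a catalytic subunit of the IkB kinase, had an MZ minus FO difference of -0.70 averaged over genotypes. Among homozygous cells it was -0.80 ± 0.18 (limma adjusted p = 0.0165). Irf7, the interferon regulatory factor downstream of TLR7 and TLR9, read 7.47 to 8.66 in FO and 5.11 to 6.94 in MZ cells. Its MZ minus FO difference was -1.53 averaged over genotypes and -2.03 ± 0.41 among heterozygous cells (limma adjusted p = 0.00901). The average difference of Irf7 missed the threshold without the S100a8 arrays. So did those of Rela, an NF-kB subunit, and Irf8, an interferon regulatory factor of B and myeloid cells. Of 7 negative regulators, 4 were lower (28.2% of all genes) and none higher (16.2%), with Irak3, a kinase-dead IRAK, counted here and among the proximal genes. Without the S100a8 arrays 3 were lower, since Tnip1 missed the threshold (limma adjusted p = 0.111), as did the proximal gene Tab1 (0.224). Nfkbia, the NF-kB inhibitor that NF-kB itself induces, read 14.23 to 14.59 in FO and 13.21 to 13.48 in MZ cells and fell by 1.06 ± 0.09 (limma adjusted p = 3.11e-05). The mean of 7 immediate early genes, which respond to handling, lay between 9.47 and 13.0 in FO and between 8.27 and 12.1 in MZ cells. Its part in these levels was not tested.

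**Figure D5:**
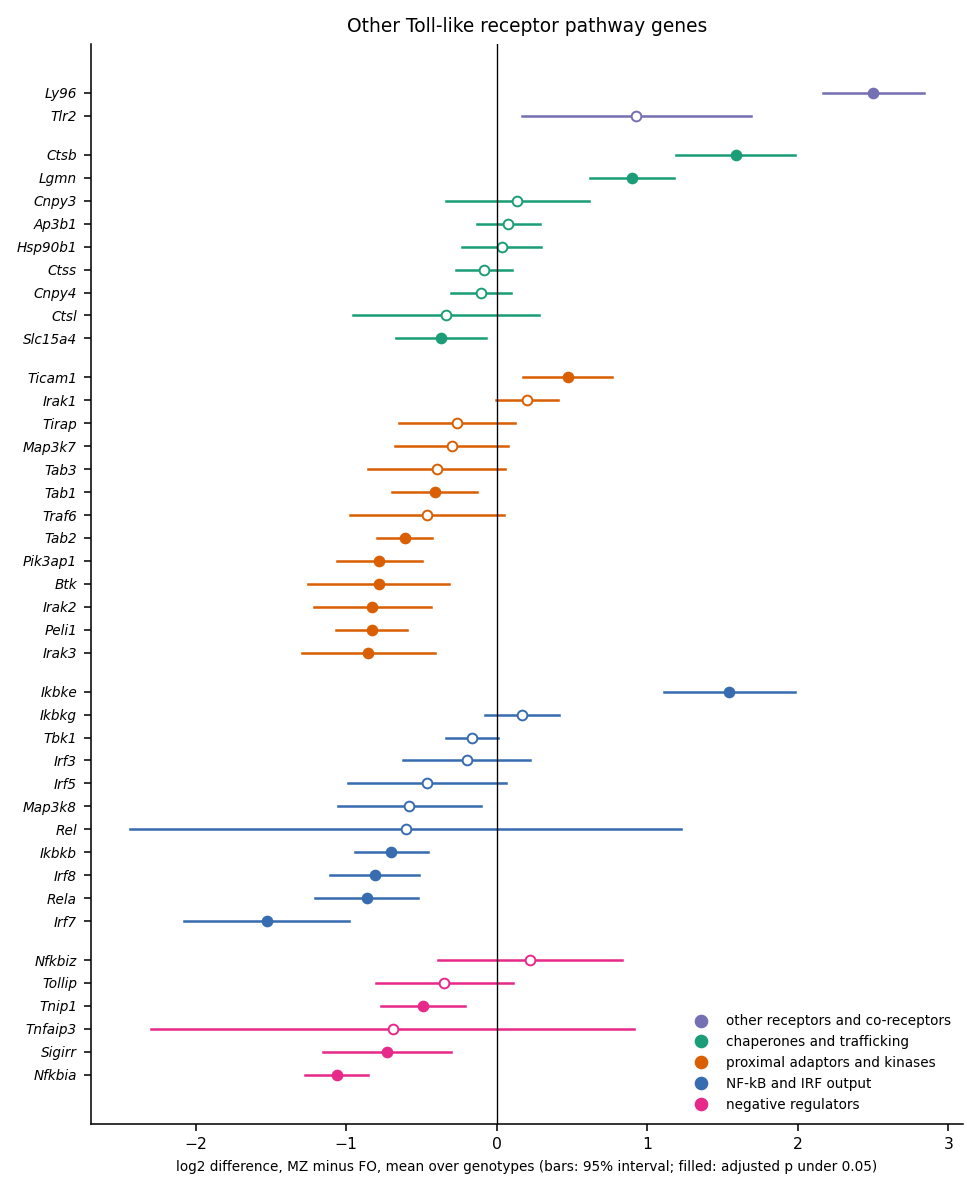
MZ minus FO log2 difference, averaged over genotypes, of the tested genes of the Toll-like receptor pathway by role, with filled points where the limma adjusted p was under 0.05. Ly96, Ctsb and Ikbke stand highest, and most called adaptors, kinases and negative regulators lie below 0.

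By genotype, 0 of the 41 pathway genes were called in FO homozygous (0.43% of all genes), MZ homozygous (0.0645%), FO heterozygous (0%) or MZ heterozygous cells (0.0107%). At an unadjusted limma p under 0.05 there were 1 (6.97% of all genes), 1 (6.08%), 0 (1.98%) and 2 (3.08%). Leaving out MZ wild-type 2, which leaves MZ wild-type 1 alone in its group, raised the count to 3 in MZ homozygous and 3 in MZ heterozygous cells, to 2 in the homozygous average and to 1 for the difference of the homozygous effect between cell types. In that setting 325 of all 9307 genes were called in MZ homozygous and 415 in MZ heterozygous cells, against 6 and 1 with all arrays. Pik3ap1, the adaptor BCAP that joins Toll-like receptors to PI3K, read 9.06 and 9.04 in FO wild-type against 8.40 and 8.29 in FO homozygous cells. In MZ cells it read 8.64 and 8.15 against 7.97 and 7.48, without overlap in either cell type. Its homozygous difference averaged over cell types was -0.69 ± 0.15, which missed the threshold (limma adjusted p = 0.13).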

How the data were processed

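Per the submitters' processing notes the authors ran GCRMA (version not given in the sources used here), and they deposited its log2 signal for each probe set. The method models background from probe sequence and equalises quantiles, which piles low signals up at a minimum. Of 45101 probe sets, 34958 carried 1 gene symbol in the platform annotation. Those gave 18194 genes, each taken at its probe set with the highest mean.

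With limma 3.58.1 in R 4.3.3, lmFit and eBayes fitted the 6 group means to the 12 arrays, leaving 6 residual degrees of freedom. Two-sided p-values were adjusted by Benjamini-Hochberg over the 9307 tested genes within each of 10 comparisons, with a threshold of 0.05. Changes are log2 differences ± SE. The number of arrays limits the precision.

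The genes, lists and tests were chosen with earlier results of these data known. Named pathway genes were up to 6 per comparison with the smallest p among those called, while Ticam1, Tlr2, Slc15a4, Rela, Irf8, Tnip1, Tab1 and the genotype values of Pik3ap1 were added after their values were seen. Alternatives covered the filter, probe set choice, scaling, array weights, arrays in the model, replicate block and left-out arrays. Leaving out the 4 S100a8 arrays was added after seeing the data. No sequence match was sought for genes missing from the RefSeq promoter table (Tlr4, Tlr7 and Unc93b1).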

Additional observations from a re-analysis of the deposited data

Results flagged for a closer look

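The effect of the homozygous genotype on Myd88 pointed in opposite directions in the 2 cell types on every array, higher in FO and lower in MZ homozygous cells. Tested directly, the MZ effect minus the FO effect was -0.63 (limma adjusted p = 0.975), so it did not pass. Without the S100a8 arrays it was -0.36.

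The heterozygous effect on Unc93b1 was also opposite on every array, lower in FO and higher in MZ heterozygous cells. Its MZ minus FO difference was 0.56 (limma adjusted p = 0.813), which did not pass either.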

How the results depend on the processing

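Counts of the 9 tested genes called between MZ and FO cells depended on the settings. In wild-type cells the count of 2 fell to 1 with array weights, to 0 when the fit held just the 4 arrays being compared (Tlr3 4.14, limma adjusted p = 0.0594), and to 1 without the 4 S100a8 arrays, and ran from 1 to 2 with an array left out. In heterozygous cells 2 fell to 1 with the probe set of highest variance and to 1 without the S100a8 arrays, and ran from 1 to 3 with an array left out. In homozygous cells 1 rose to 2 without the filter, through Tlr9, and fell to 0 without the S100a8 arrays. Without the filter Tlr9 also passed in wild-type and heterozygous cells and in the average over genotypes. Averaged over genotypes 3 rose to 5 at equal array medians, through Tlr6 and Ly86, and Tlr4 missed the threshold with the mean of all probe sets (0.54, adjusted p = 0.102). That count ran from 2 to 4 with an array left out. For these 9 genes, genotype counts of 0 stayed at 0 under all alternatives run. No called difference changed sign under any alternative. Over all values and alternatives, 2342 kept their direction and side of the threshold, 62 fell below it and 8 rose past it. The other 117 changed direction without being called. Of the pathway list, 20 genes were called between cell types averaged over genotypes, and that count ranged from 15 to 28 over 23 alternatives. By genotype the pathway counts ranged more widely: 11 in wild-type cells went to 1 when just the arrays being compared were fitted and to 20 without the filter, 12 in heterozygous cells to 3 without the S100a8 arrays and to 21 without the filter, and 10 in homozygous cells to 2 and to 18 in the same settings.

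With the replicate block, the count of genes called in the average over genotypes stayed at 3 and that in heterozygous cells rose from 2 to 3, through Tlr4 (1.15, limma adjusted p = 0.0177), with Tlr3 in the average over genotypes at 4.50 (adjusted p = 8.01e-05). The labels do not say that numbers pair samples, and deviations of same-numbered FO and MZ arrays correlated at -0.216 in wild-type, 0.119 in heterozygous and 0.68 in homozygous cells.

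The number of arrays, 2 per group, limits the genotype comparisons, and levels set across cell types carry the unsettled normalization. Without the S100a8 arrays 2 residual degrees of freedom remained, and the cause of the lost calls was not tested beyond that.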
